A study of Mus musculus with 12 samples.

Results

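The proteasome genes were taken as every gene whose symbol is Psm, then a letter from a to g, then a number, on probe sets that carry 1 gene symbol. The rule found 49 genes of the 18193 named on the arrays, and each was read on its probe set with the highest mean over the 12 arrays. They comprised 8 alpha subunits and 7 constitutive beta subunits of the 20S core, and 6 ATPases and 11 other subunits of the 19S cap. A further 4 belonged to the immunoproteasome and its activator (Psmb8, Psmb9, Psmb10 and Psme1), 7 were assembly chaperones, and 3 were other activators or an inhibitor (Psme3, Psme4 and Psmf1). The remaining 3 were Psmb11, the beta subunit of the thymus-specific proteasome, and Psmc3ip and Psme3ip1. Those last 2 match the symbol rule but are not proteasome subunits. Psme2, the partner of Psme1, shared its probe set with a second symbol and was not used here.

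The proteasome degrades proteins tagged with ubiquitin. Its 20S core is a barrel of alpha and beta rings with the proteolytic sites on the inner face of 3 of the beta subunits, and the 19S cap binds ubiquitin, unfolds the substrate with its ATPases and feeds it into the barrel. In blood cells, and in other cells after interferon, the catalytic subunits Psmb6, Psmb7 and Psmb5 can be replaced by Psmb9, Psmb10 and Psmb8, which changes the peptides available to MHC class I. The PA28 activators, Psme1 with Psme2 in the cytoplasm and Psme3 in the nucleus, open the core without ATP or ubiquitin.

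By the labels, total RNA of unfractionated, uncultured bone marrow from tibia and femur was measured in 12 mice, 1 array each, with no pooling. The groups were 3 wild-type C57Bl/6 mice, 3 Fancc-/- mice, 3 Fancg-/- mice and 3 mice lacking both genes (double knockout). The 2 deleted genes encode subunits of a ubiquitin ligase, the Fanconi anemia core complex, needed when cells repair crosslinked DNA. The labels give neither age nor sex, and name no background strain for the knockouts. All signals below are log2 values, differences are differences of log2 signal, and a gene was called changed at a Benjamini-Hochberg adjusted p below 0.05 in limma over the 11906 genes tested.

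Array medians lay between 4.79 and 4.87, and correlations between arrays of a group ran from 0.981 to 0.995. Fancg signal was 6.84 ± 0.03 (SD, n = 3) in wild type and 5.74 ± 0.11 in the double knockout, and the libraries labelled Fancg-/- gave 6.55, 6.00 and 6.64. Their replicates 1 and 3 lay below wild type but within the range of Fancc-/- marrow, 6.43 to 6.72, so this gene sets only replicate 2 apart from mice with an intact Fancg. Fancc signal was 6.04 ± 0.14 in wild type and 6.06 ± 0.11 in Fancc-/- marrow, so this probe set did not separate the knockout from its control. The Y-linked Eif2s3y was at 3.04 ± 0.15 in wild type and 3.14 ± 0.18 in Fancc-/- marrow, against 9.00 ± 0.30 in the double knockout. Xist, which silences the second X chromosome of females, was at 11.89 ± 0.52 in wild type, 11.69 ± 0.47 in Fancc-/- marrow and 6.82 ± 0.73 in the double knockout. In replicates 1, 2 and 3 labelled Fancg-/-, Eif2s3y was at 7.64, 9.09 and 5.78 and Xist at 11.31, 7.34 and 10.75. Replicates 1 and 3 thus carried both transcripts, and whether each held RNA of 1 mouse was not tested. Genotype and sex therefore cannot be told apart between the double knockout and either wild type or Fancc-/- marrow, nor between the libraries labelled Fancg-/- and those groups. Every direction given below for Fancg-/- marrow rests on these labels, and values of the 19S, 20S and immunoproteasome classes are also given without replicates 1 and 3, which leaves 1 Fancg-/- mouse, assumed to vary like the other groups. Of the B cell list, 10 of 11 tested markers fell in Fancc-/- and in double-knockout marrow (median differences from wild type -2.52 and -2.26), and 10 of 12 erythroid markers rose in Fancc-/- marrow (median 1.13). In such mixed marrow, fewer cells of a type and less RNA per cell cannot be told apart.

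For the genes the results turn on, the 250 bases before the annotated start are shown because the members are described below as groups that share a direction. They are from RefSeq on GRCm38.p6 and read 5′ to 3′ on the strand of the gene. The regions are chr17:34197945-34198194 (plus strand) for Psmb8, chr17:34187331-34187580 (minus) for Psmb9, chr11:107479278-107479527 (plus) for Psmd12, chr14:14120946-14121195 (minus) for Psmd6 and chr11:101315963-101316212 (plus) for Psme3. Capitals mark any match, on either strand, to 4 motifs: the interferon-stimulated response element core (GAAA, any 2 bases, GAAA), the gamma-activated site TTCNNNGAA, the antioxidant response core TGACNNNGC and the CCAAT box.
Psmb8: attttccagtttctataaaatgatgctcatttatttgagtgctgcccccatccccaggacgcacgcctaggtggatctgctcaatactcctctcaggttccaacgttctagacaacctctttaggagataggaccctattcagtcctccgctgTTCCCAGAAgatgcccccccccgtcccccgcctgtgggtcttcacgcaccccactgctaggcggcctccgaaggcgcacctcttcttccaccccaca
Psmb9: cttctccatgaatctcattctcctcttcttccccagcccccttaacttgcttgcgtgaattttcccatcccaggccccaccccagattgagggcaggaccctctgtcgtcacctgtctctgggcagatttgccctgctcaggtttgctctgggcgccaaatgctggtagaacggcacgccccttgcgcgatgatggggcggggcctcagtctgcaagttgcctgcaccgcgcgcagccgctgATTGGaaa
Psmd12: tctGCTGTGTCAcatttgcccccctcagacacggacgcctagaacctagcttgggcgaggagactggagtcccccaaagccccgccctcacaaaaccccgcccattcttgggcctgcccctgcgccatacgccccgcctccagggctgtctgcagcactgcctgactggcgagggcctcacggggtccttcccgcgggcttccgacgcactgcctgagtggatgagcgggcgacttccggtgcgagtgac
Psmd6: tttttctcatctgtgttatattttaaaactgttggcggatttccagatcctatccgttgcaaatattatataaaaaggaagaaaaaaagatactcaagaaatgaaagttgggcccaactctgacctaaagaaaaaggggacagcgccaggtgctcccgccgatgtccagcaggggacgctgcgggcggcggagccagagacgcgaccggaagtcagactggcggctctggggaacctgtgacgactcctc
Psme3: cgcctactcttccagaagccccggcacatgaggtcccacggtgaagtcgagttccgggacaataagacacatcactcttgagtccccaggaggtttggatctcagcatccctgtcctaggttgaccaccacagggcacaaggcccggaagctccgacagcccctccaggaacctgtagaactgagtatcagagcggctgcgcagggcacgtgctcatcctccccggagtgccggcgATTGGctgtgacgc

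Psmb8 carried 1 gamma-activated site, at position -97 from the gene start, and Psmd12 carried 1 antioxidant response core on the opposite strand, at position -247. Psmb9 and Psme3 each carried a CCAAT box on the opposite strand, and Psmd6 held no match to the 4 motifs in these 250 bases. Over windows of 300 bases (250 before and 50 after the start), the table gave 41 of the 49 members. The gamma-activated site was in 3 of 41 members and in 8.3% of all 32851 windows, and the antioxidant response core in 6 of 41 and 12.4%. The interferon element core was in 5 of 41 and 3.44%, including Psme1 at position 10, past the bases printed for the other genes, and the CCAAT box was in 16 of 41 and 37.4%. Within the 19S cap, 2 of 14 windows held the antioxidant response core, and within the 4 immunoproteasome and PA28 genes none of the 4 did. The Psmb9 window shares 275 of its 300 bases with that of Tap1, a peptide transporter gene read from the other strand. A match of letters is a description and shows no binding.

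Most proteasome genes were measured well above the array medians: 48 of the 49 passed the filter on dim probe sets, and Psmb11 did not, with signals from 4.08 to 4.42. In the comparisons with wild type, 1 of the 48 was called in Fancc-/- marrow, against 4.54% of all genes tested. None was called by limma in Fancg-/- marrow, against 0.0504%. In the double knockout 2 were called, against 5.28%. At an unadjusted p below 0.05 the members numbered 8 in Fancc-/- marrow, against 19.8% of all genes, 2 in Fancg-/- marrow, against 7%, and 19 in the double knockout, against 24.2%. The called genes were Psme3 in Fancc-/- marrow and Psmd12 and Psmd6 in the double knockout, and all 3 rose. The signs of the differences, not the calls, varied by class: the 19S cap lay above wild type, the 20S core less so, and the immunoproteasome genes below.

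**Figure D1:**
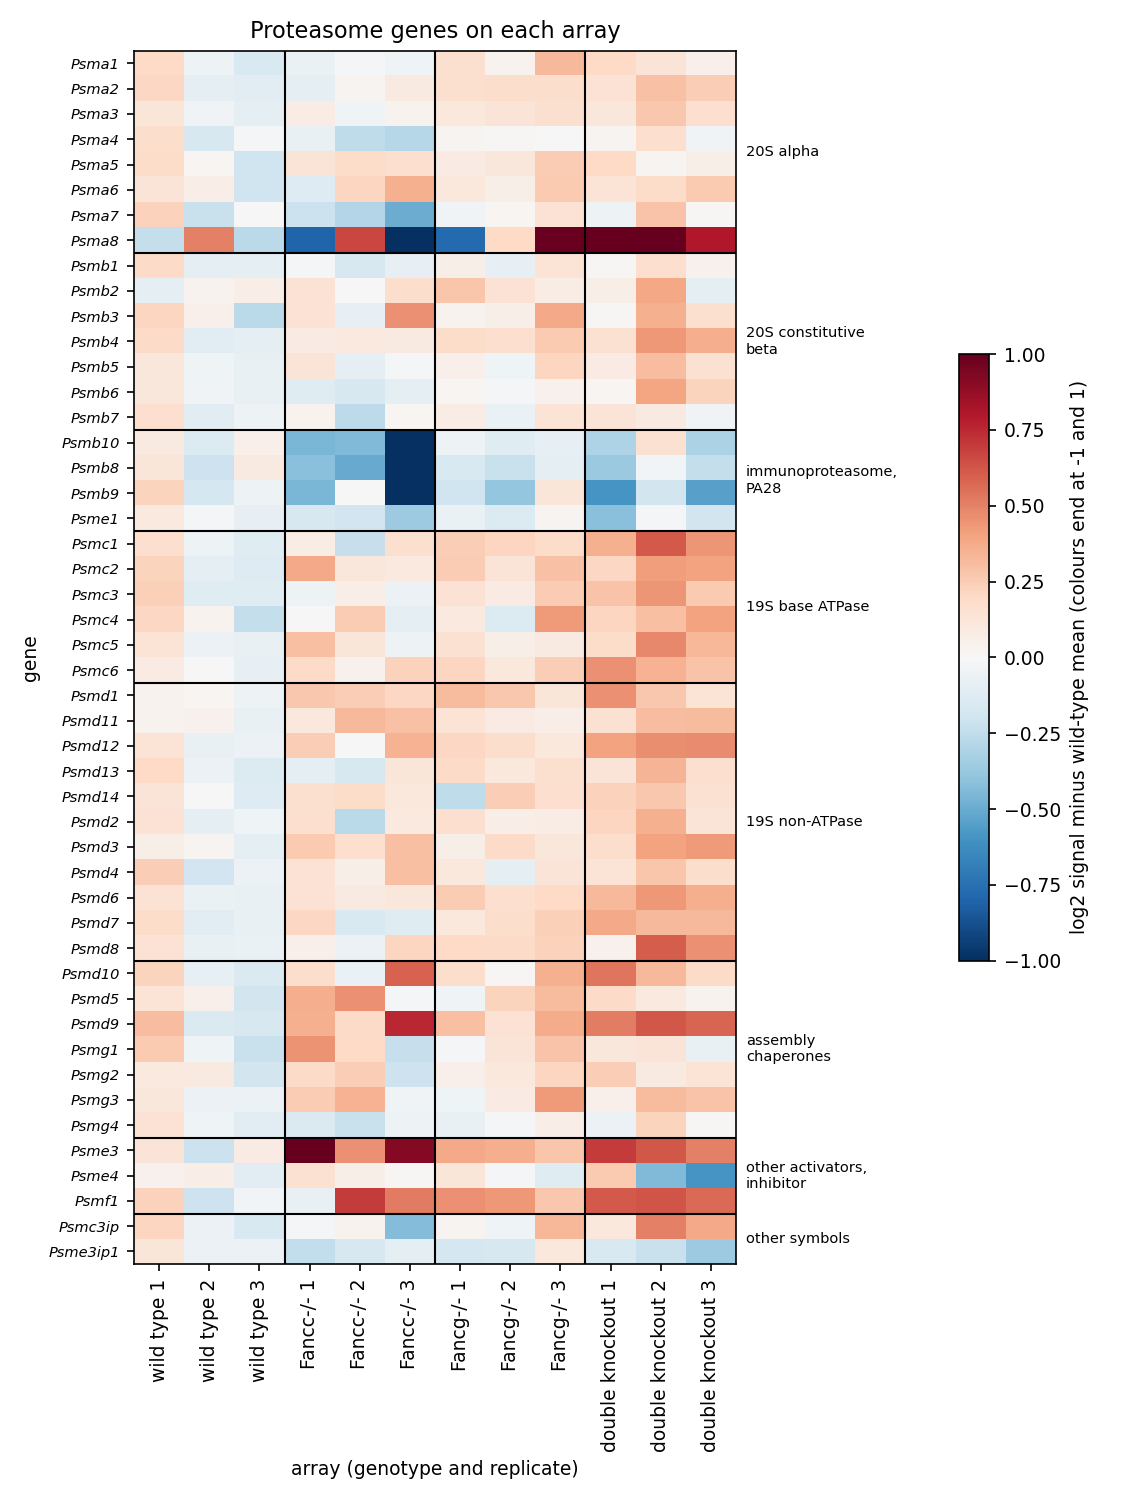
Log2 signal of each tested proteasome gene (rows, by class) on each of the 12 arrays (columns), minus the mean of the 3 wild-type arrays; colours end at -1 and 1. Immunoproteasome genes are blue on the Fancc-/- arrays, except Psmb9 on replicate 2, and darkest on replicate 3. The 19S genes are red on the double-knockout arrays.

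The immunoproteasome was lowest in Fancc-/- marrow. Psmb8, which replaces Psmb5, had signals of 10.86, 10.53 and 10.83 in the wild-type mice and 10.33, 10.24 and 9.54 in the Fancc-/- mice. Signals were 10.59, 10.52 and 10.64 in Fancg-/- marrow and 10.37, 10.71 and 10.50 in the double knockout. All 3 Fancc-/- mice lay below all 3 wild-type mice, and replicate 3 lay well below the other Fancc-/- mice. The difference was -0.71 (SE 0.18), which missed the threshold in limma (adjusted p = 0.0524). The differences in Fancg-/- marrow (-0.16) and in the double knockout (-0.21) came with overlapping groups.

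Psmb10, which replaces Psmb7, showed the same order of groups. Its signals were 9.82, 9.59 and 9.78 in wild type, 9.27, 9.29 and 8.40 in Fancc-/-, 9.67, 9.61 and 9.65 in Fancg-/- marrow, and 9.42, 9.88 and 9.41 in the double knockout. Fancc-/- mice were again all below wild type, by -0.74 (SE 0.21, limma adjusted p = 0.0782). Psmb9, which replaces Psmb6, had signals of 10.21, 9.81 and 9.93 in wild type, 9.53, 9.99 and 8.68 in Fancc-/-, 9.78, 9.60 and 10.11 in Fancg-/- marrow, and 9.39, 9.80 and 9.44 in the double knockout. One Fancc-/- mouse lay within the wild-type range, and the difference was -0.58 (SE 0.27, limma adjusted p = 0.261). The double-knockout mice all lay below the wild-type mice for Psmb9, although the nearest pair differed by little, and the difference was -0.44 (SE 0.27, limma adjusted p = 0.366).

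Psme1, the PA28 alpha subunit, had signals of 10.80, 10.68 and 10.61 in wild type and 10.53, 10.51 and 10.33 in Fancc-/- marrow. The other groups had 10.63, 10.56 and 10.73 (Fancg-/-) and 10.28, 10.67 and 10.51 (double knockout). The Fancc-/- mice were all below wild type, by -0.24 (SE 0.11, limma adjusted p = 0.272). Over the 4 genes the median difference was -0.65 in Fancc-/- marrow, -0.12 in Fancg-/- marrow and -0.21 in the double knockout, against medians of -0.01, 0.01 and -0.01 over all genes tested. Without replicates 1 and 3 labelled Fancg-/-, the Fancg-/- median was -0.18. In Fancc-/- marrow the groups did not overlap, with the knockout lower, for 3 of the 4, against 13.1% of all genes. In the double knockout this held for 1 of the 4, against 16.9%.

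One library set the size of this difference. The median of the 4 genes, each minus its wild-type mean, was -0.43, -0.31 and -1.25 on the Fancc-/- arrays. Without Fancc-/- replicate 3 the Fancc-/- median was -0.34, with all 4 genes still below wild type, and Psmb8 differed by -0.46 (limma adjusted p = 0.0717) and Psmb10 by -0.45 (limma adjusted p = 0.12). Without replicate 1 or replicate 2 instead, Psmb8 passed the test (limma adjusted p = 0.0379 and 0.0455), and Psmb10 passed without replicate 2 (limma adjusted p = 0.0494). Psmb8 also passed where each array was centred on its median (limma adjusted p = 0.0457).

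The same array was low for markers of several other marrow cells. The median difference from wild type of the 9 monocyte and macrophage markers was -1.19 on Fancc-/- replicate 3, against -0.27 and -0.28 on the other Fancc-/- arrays. For the 8 T and NK cell markers it was -1.80, against -0.26 and -0.01, and for the 7 eosinophil, basophil and mast cell markers it was -3.11, against -0.97 and -0.94. The mean signal of those lists on the array was 8.70, 6.43 and 7.08, against wild-type ranges of 9.30 to 9.60, 7.75 to 7.90 and 10.13 to 10.41. Other lists were not low there: the 13 neutrophil markers had a median difference of -0.02 and a mean signal of 13.01 (wild type 12.96 to 13.05), and the 7 markers of stroma, bone and vessel had a median of 0.40 and a mean of 6.59 (wild type 5.61 to 6.71). In the Fancc-/- comparison with wild type 0 of 9, 2 of 8 and 3 of 7 of these markers fell. Their part in the immunoproteasome values was not tested.

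**Figure D2:**
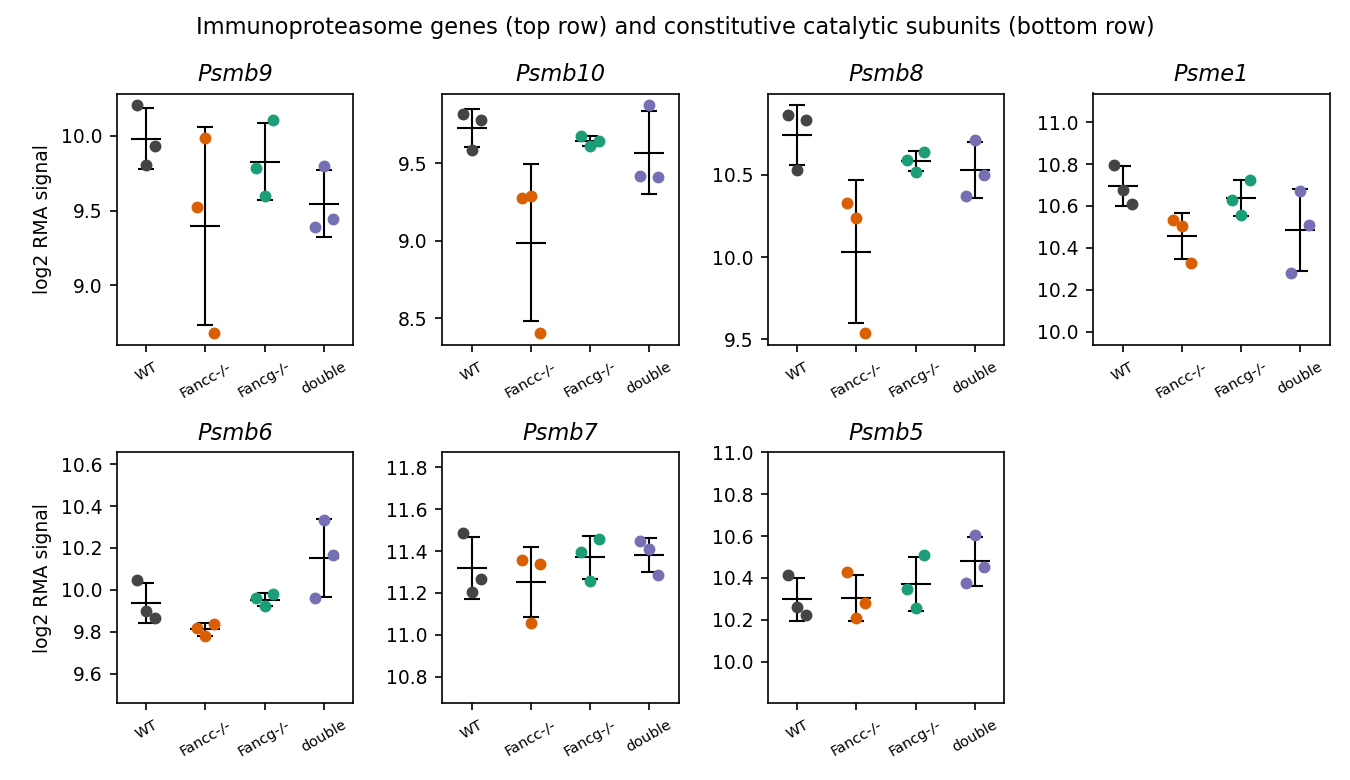
Log2 signal of the immunoproteasome genes (top row) and the constitutive catalytic subunits Psmb6, Psmb7 and Psmb5 (bottom row) by group; points are mice, lines the mean and bars the SD of 3 mice, and each panel has its own axis. The lowest Fancc-/- point for Psmb8, Psmb9 and Psmb10 is replicate 3, and the constitutive subunits show no such point.

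The constitutive catalytic subunits showed smaller differences than their inducible counterparts in Fancc-/- marrow. Psmb5 was at 10.42, 10.26 and 10.22 in wild type, 10.43, 10.21 and 10.28 in Fancc-/-, 10.35, 10.26 and 10.51 in Fancg-/- marrow, and 10.38, 10.61 and 10.45 in the double knockout. Psmb7 was at 11.49, 11.20 and 11.27 in wild type, 11.36, 11.06 and 11.34 in Fancc-/-, 11.39, 11.26 and 11.46 in Fancg-/- marrow, and 11.45, 11.41 and 11.29 in the double knockout. For both genes every knockout group overlapped wild type. Psmb6 was at 10.05, 9.90 and 9.87 in wild type, 9.82, 9.78 and 9.84 in Fancc-/-, 9.96, 9.92 and 9.98 in Fancg-/- marrow, and 9.96, 10.33 and 10.16 in the double knockout. Psmb6 was slightly lower in every Fancc-/- mouse (-0.13, SE 0.11, limma adjusted p = 0.552), and double-knockout mice overlapped wild type.

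Taking each inducible subunit minus its counterpart on the same array, relative to wild type, puts both genes on 1 scale. Psmb8 minus Psmb5 was -0.72 ± 0.41 (SD, n = 3) in Fancc-/-, -0.23 ± 0.07 in Fancg-/- marrow and -0.39 ± 0.05 in the double knockout, where wild-type arrays spread by 0.17 (SD). Psmb9 minus Psmb6 was -0.46 ± 0.69 in Fancc-/-, -0.17 ± 0.23 in Fancg-/- marrow and -0.65 ± 0.10 in the double knockout. The double-knockout values, from -0.77 to -0.57, all lay below the wild-type values, which ran from -0.14 to 0.12. Both genes of a pair enter such a value. In the double knockout Psmb8, Psmb9 and Psmb10 differed from wild type by -0.21, -0.44 and -0.16. Psmb5, Psmb6 and Psmb7 differed by 0.18, 0.21 and 0.06. Psmb10 minus Psmb7 was -0.67 ± 0.60, -0.13 ± 0.08 and -0.22 ± 0.25 in the 3 knockout groups, and there the double knockout overlapped wild type. These differences were not tested, and 3 mice against 3 cannot give an exact permutation p below 0.10.

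Genes that work with the immunoproteasome were read from a separate list of class I antigen processing and its interferon regulators. Of its 16 tested members none was called by limma in a comparison with wild type; 4, 1 and 4 had an unadjusted p below 0.05 in Fancc-/-, Fancg-/- and double-knockout marrow, against 19.8%, 7% and 24.2% of all genes. The list's median differences were -0.23, -0.13 and -0.12. In Fancc-/- marrow the smallest p values belonged to Irf8, an interferon regulatory factor of myeloid and B cells (-1.58, SE 0.48, limma adjusted p = 0.0867), Tap2, a subunit of the peptide transporter (-0.44, SE 0.16, limma adjusted p = 0.136), and Tapbpl, a peptide editor (-0.52, SE 0.18, limma adjusted p = 0.137). Irf8 was at 10.88, 10.85 and 10.65 in wild type and at 9.65, 10.30 and 7.69 in Fancc-/- marrow, so replicate 3 was the lowest array here as well. Tap1, named for its shared window with Psmb9 and not by its values, differed by -0.22 (SE 0.19, limma adjusted p = 0.556) in Fancc-/- marrow, and its groups overlapped. In the double knockout the smallest p values were those of Stat2 (-0.63), Nlrc5, a transactivator of class I genes (-0.79), and Irf8 (-1.14), with limma adjusted p values of 0.116, 0.141 and 0.17. In Fancg-/- marrow they were those of Stat2 (-0.60), Calr (-0.26) and Irf8 (-0.70), with limma adjusted p values from 0.594 to 0.885.

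The 19S cap lay above wild type in the double knockout. All 17 of its genes that match the symbol rule had a positive difference there, from 0.20 to 0.47 with a median of 0.33. Of all genes, 47.8% had a positive difference. The 17 genes were read on the same arrays, so counts over them rest on 3 mice against 3. Their median on each array, relative to the wild-type mean, was 0.14, -0.06 and -0.08 in wild type and 0.21, 0.36 and 0.33 in the double knockout. The groups did not overlap, with the double knockout higher, for 12 of the 17, against 12.5% of all genes, and 12 had an unadjusted p below 0.05 with a positive difference, against 10.5%. Of these, 2 were called, against 2.27% of all genes called higher. The 17 remained above wild type when any 1 wild-type or double-knockout array was left out, with medians from 0.28 to 0.41, and under both rescalings of the arrays. Cell markers moved in the same comparison. B cell markers fell (10 of 11, list mean 6.37 to 6.44 across double-knockout mice and 8.54 to 9.03 across wild-type mice), and 4 of 12 erythroid markers rose (list median 0.61). Of 13 neutrophil markers 2 fell, Mpo (-0.31, limma adjusted p = 0.0279) and Elane (-0.33, limma adjusted p = 0.0297), with a list mean of 12.65 to 12.87 against 12.96 to 13.05. Eif2s3y and Xist separated the same groups, and the part of none of these in the 19S values was tested.

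Psmd12, a non-ATPase subunit of the 19S lid, had signals of 9.51, 9.30 and 9.32 in wild type, 9.62, 9.37 and 9.72 in Fancc-/-, 9.58, 9.55 and 9.48 in Fancg-/- marrow, and 9.78, 9.84 and 9.85 in the double knockout. The 3 double-knockout mice were the highest of the 12 and close together. The rise over wild type was 0.45 (SE 0.11), or 1.36-fold (limma adjusted p = 0.0456). Psmd6, also a lid subunit, had signals of 10.51, 10.30 and 10.29 in wild type, 10.51, 10.46 and 10.48 in Fancc-/-, 10.62, 10.54 and 10.57 in Fancg-/- marrow, and 10.69, 10.80 and 10.74 in the double knockout. The double-knockout mice were again the 3 highest, and the rise was 0.37 (SE 0.09), or 1.30-fold (limma adjusted p = 0.0373). A second, dimmer Psmd6 probe set differed by 0.22. Neither gene passed without wild-type replicate 2 or 3 or without double-knockout replicate 2 or 3 (limma adjusted p from 0.128 to 0.168), and without wild-type replicate 1 Psmd6 alone passed (limma adjusted p = 0.0475). Both calls were also lost with no filter on dim probe sets, after median centring, with a replicate block, in a fit of the groups compared alone, and without replicates 1 and 3 labelled Fancg-/- (limma adjusted p from 0.0528 to 0.0978 for Psmd12 and from 0.0542 to 0.0847 for Psmd6). Psmd12 missed after a further quantile normalization (limma adjusted p = 0.0509), and Psmd6 with the mean of its probe sets (limma adjusted p = 0.0928).

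The 6 ATPases of the cap were close behind. Psmc1 was at 9.23, 9.01 and 8.94 in wild type, 9.13, 8.83 and 9.23 in Fancc-/-, 9.31, 9.28 and 9.25 in Fancg-/- marrow, and 9.42, 9.68 and 9.51 in the double knockout. Its double-knockout mice lay above all others, by 0.47 over wild type (SE 0.13, limma adjusted p = 0.0599); it is named as the largest 19S difference after its values were seen. Psmc2 had the largest average difference of the ATPases over the 3 knockouts and Psmc3 the smallest. Psmc2 was at 10.43, 10.11 and 10.08 in wild type, 10.59, 10.32 and 10.30 in Fancc-/-, 10.46, 10.33 and 10.49 in Fancg-/- marrow, and 10.41, 10.62 and 10.61 in the double knockout. Psmc3 was at 10.58, 10.21 and 10.22 in wild type, 10.29, 10.40 and 10.28 in Fancc-/-, 10.48, 10.42 and 10.59 in Fancg-/- marrow, and 10.62, 10.78 and 10.60 in the double knockout. Both differed by about the same amount in the double knockout (0.34 and 0.33, limma adjusted p = 0.117 and 0.107), and wild-type replicate 1 was their highest wild-type array. Psmd13 had the smallest average difference of the non-ATPase subunits. It was at 9.34, 9.09 and 9.00 in wild type, 9.06, 8.99 and 9.27 in Fancc-/-, 9.34, 9.25 and 9.31 in Fancg-/- marrow, and 9.28, 9.48 and 9.31 in the double knockout, and each knockout group overlapped wild type.

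In the single knockouts the 19S differences were smaller. In Fancg-/- marrow all 17 were positive, against 52.3% of all genes, with a median of 0.16. None was called by limma, against 0.0504%. Of the 17, 2 had an unadjusted p below 0.05, against 7%, and 7 did not overlap wild type, against 8.68%. Without replicates 1 and 3 labelled Fancg-/-, 15 of 17 were positive, with a median of 0.13. In Fancc-/- marrow 13 of 17 were positive, against 48.4%, with a median of 0.12. None was called, against 4.54%. Of the 17, 3 had an unadjusted p below 0.05, against 19.8%, and 3 did not overlap wild type, against 11.1%. The Fancc-/- count of positive differences rested on scaling and on single arrays: it was 12 after median centring, 17 after a further quantile normalization, and 11 to 17 when 1 array was left out.

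**Figure D3:**
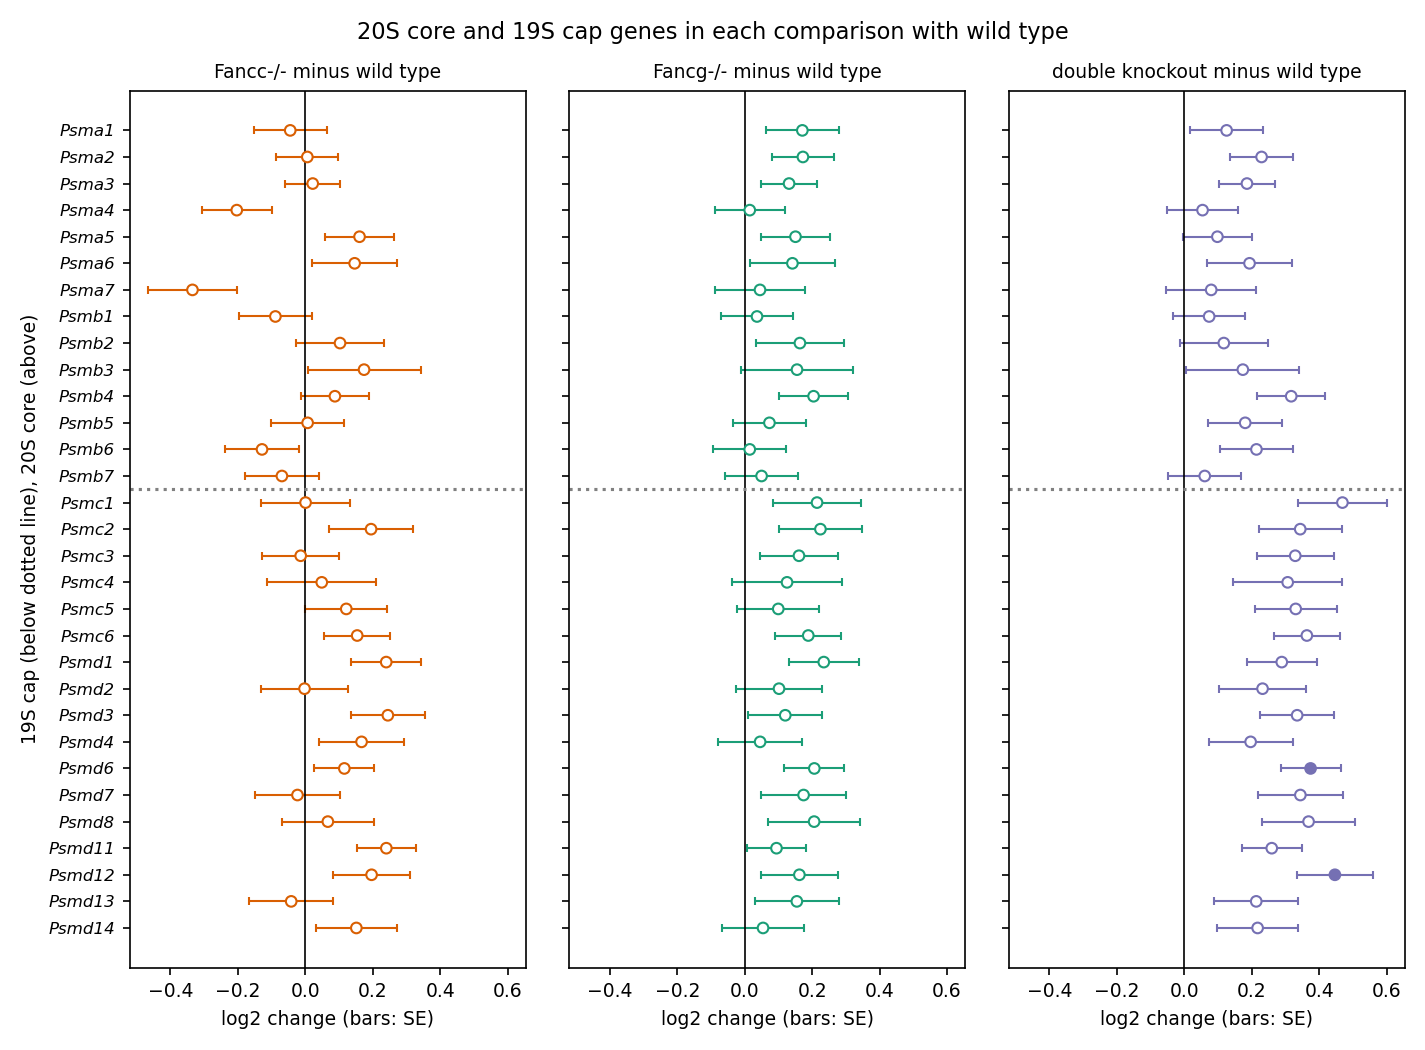
Log2 difference from wild type (points) with its SE (bars) for the 14 core genes of the 20S above the dotted line and the 17 genes of the 19S cap below it, in each knockout group; filled points passed the adjusted p threshold of 0.05. In the double knockout every 19S gene lies to the right of 0, and the filled points are Psmd6 and Psmd12.

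The 20S core, without Psma8, had smaller differences. In the double knockout all 14 genes were above wild type with a median of 0.15, against 47.8% of all genes with a positive difference. Of the 14, 1 did not overlap wild type, against 12.5%, none was called by limma, and 3 had an unadjusted p below 0.05, against 10.5% of all genes with such a p and a positive difference. In Fancg-/- marrow 14 were positive with a median of 0.14, against 52.3%, and 10 with a median of 0.045 without replicates 1 and 3 so labelled. In Fancc-/- marrow 8 were positive, with a median of 0.01, against 48.4%. With any 1 array left out the counts ran from 11 to 14 in the double knockout, 9 to 14 in Fancg-/- and 5 to 11 in Fancc-/- marrow; wild-type replicate 1 had a 20S median 0.18 above the wild-type mean. The median of the 19S genes minus that of the 20S genes on the same array was -0.03, -0.01 and 0.01 in wild type and 0.12, 0.08 and 0.22 in the double knockout. It was 0.15, 0.12 and 0.10 in Fancc-/- marrow, above every wild-type array. In Fancg-/- marrow it was 0.09 and 0.08 on replicates 1 and 2 and close to 0 on replicate 3. That replicate had the lower RNA input of 0.91 µg in place of 2 µg and, like replicate 1, carried both Eif2s3y and Xist. Its B cell list mean was 8.17, against 6.46 and 6.84 on replicates 1 and 2 and 8.54 to 9.03 across wild-type mice. The part of none of these in that value was tested.

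Psmb4, a structural beta subunit, had the largest average difference of the constitutive beta genes. It was at 11.25, 10.95 and 10.97 in wild type, 11.13, 11.15 and 11.15 in Fancc-/-, 11.24, 11.23 and 11.32 in Fancg-/- marrow, and 11.21, 11.49 and 11.42 in the double knockout. Double-knockout replicate 1 lay below wild-type replicate 1, and the difference was 0.32 (SE 0.10, limma adjusted p = 0.0841). A second bright Psmb4 probe set differed by 0.17 in the double knockout. Psmb1, with the smallest average difference, was at 10.58, 10.29 and 10.30 in wild type, 10.37, 10.23 and 10.31 in Fancc-/-, 10.45, 10.31 and 10.53 in Fancg-/- marrow, and 10.40, 10.56 and 10.43 in the double knockout, with all groups overlapping. Psma7, an alpha ring subunit, was at 11.20, 10.75 and 10.97 in wild type, 10.76, 10.69 and 10.48 in Fancc-/-, 10.94 to 11.12 in Fancg-/- marrow, and 10.92, 11.26 and 10.98 in the double knockout. Its Fancc-/- difference was -0.33 (SE 0.13, limma adjusted p = 0.191), and Fancc-/- replicate 3 was its lowest array. A second bright Psma7 probe set differed by -0.10 in Fancc-/- marrow.

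Psma8, the alpha subunit of the testis proteasome, was dim and variable. Its signals were 4.78, 5.53 and 4.75 in wild type, 4.22, 5.69 and 3.96 in Fancc-/-, 4.24, 5.22 and 6.00 in Fancg-/- marrow, and 6.43, 6.29 and 5.82 in the double knockout. The double-knockout mice lay above wild type by 1.16 (SE 0.47), which did not pass (limma adjusted p = 0.161). Eif2s3y and Xist differed between the same groups, so genotype and sex cannot be told apart here.

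**Figure D4:**
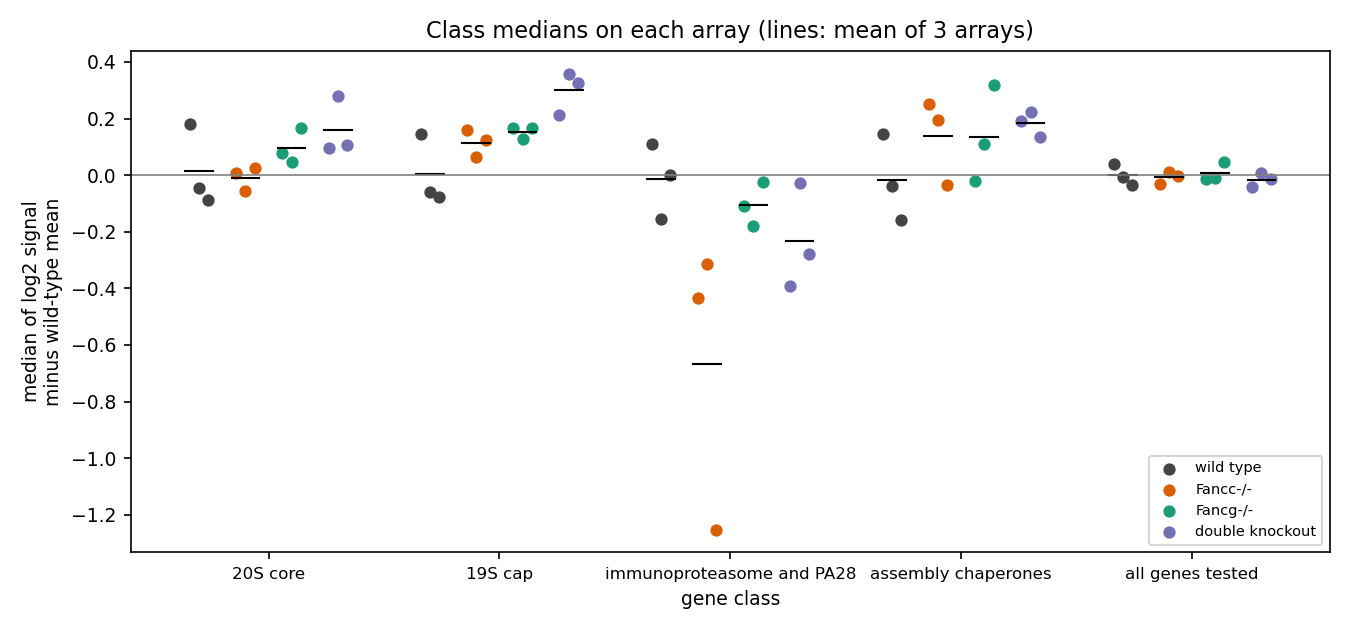
Median over the genes of each class of log2 signal minus the wild-type mean, 1 point per array and lines at the mean of 3 arrays, beside the same for all genes tested. Double-knockout arrays are highest for the 19S cap, and Fancc-/- replicate 3 is lowest for the immunoproteasome and PA28 at -1.25.

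Psme3, the nuclear activator PA28 gamma, was the called proteasome gene of Fancc-/- marrow. Its signals were 9.08, 8.73 and 9.03 in wild type, 10.12, 9.40 and 9.87 in Fancc-/-, 9.33, 9.31 and 9.22 in Fancg-/- marrow, and 9.64, 9.57 and 9.45 in the double knockout. All 9 arrays labelled as knockouts lay above all 3 wild-type arrays, and Fancc-/- replicate 2 was the lowest of its group. The rise in Fancc-/- marrow was 0.85 (SE 0.17), or 1.80-fold (limma adjusted p = 0.0155). The differences of 0.34 in Fancg-/- marrow (SE 0.17, limma adjusted p = 0.735) and 0.61 in the double knockout (SE 0.17, limma adjusted p = 0.056) did not pass. A second bright Psme3 probe set gave 0.83, 0.20 and 0.54, and a dim further one gave -0.10, -0.28 and -0.08. The Fancc-/- call was lost without wild-type replicate 2 (limma adjusted p = 0.0791) and in a fit of those 2 groups alone, without a replicate block (limma adjusted p = 0.0932) and with one (limma adjusted p = 0.06). With the block in the fit of all 12 arrays it was kept (limma adjusted p = 0.014). The erythroid list was also higher in the knockouts. The mean signal of its 12 markers ran from 9.72 to 10.10 across wild-type mice and from 10.82 to 11.29 across Fancc-/- mice, with 10.50 to 10.64 for Fancg-/- and 10.28 to 11.05 for double-knockout mice, and their part in the Psme3 values was not tested.

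Psmf1, the proteasome inhibitor PI31, was at 8.70, 8.26 and 8.45 in wild type, 8.39, 9.17 and 8.99 in Fancc-/-, 8.93, 8.91 and 8.74 in Fancg-/- marrow, and 9.08, 9.09 and 9.03 in the double knockout. The double-knockout mice were nearly equal and all above wild type, by 0.60 (SE 0.18, limma adjusted p = 0.0744). Fancc-/- replicate 1 lay within the wild-type range. Psme4, the activator PA200, was at 9.30, 9.32 and 9.15 in wild type, 9.41, 9.31 and 9.27 in Fancc-/-, 9.38, 9.24 and 9.13 in Fancg-/- marrow, and 9.51, 8.81 and 8.67 in the double knockout. Double-knockout replicate 1 was the highest of the 12 arrays and replicates 2 and 3 the lowest, so the difference of -0.26 did not pass (SE 0.18, limma adjusted p = 0.439). Without replicate 1 it was -0.52 (limma adjusted p = 0.0169).

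**Figure D5:**
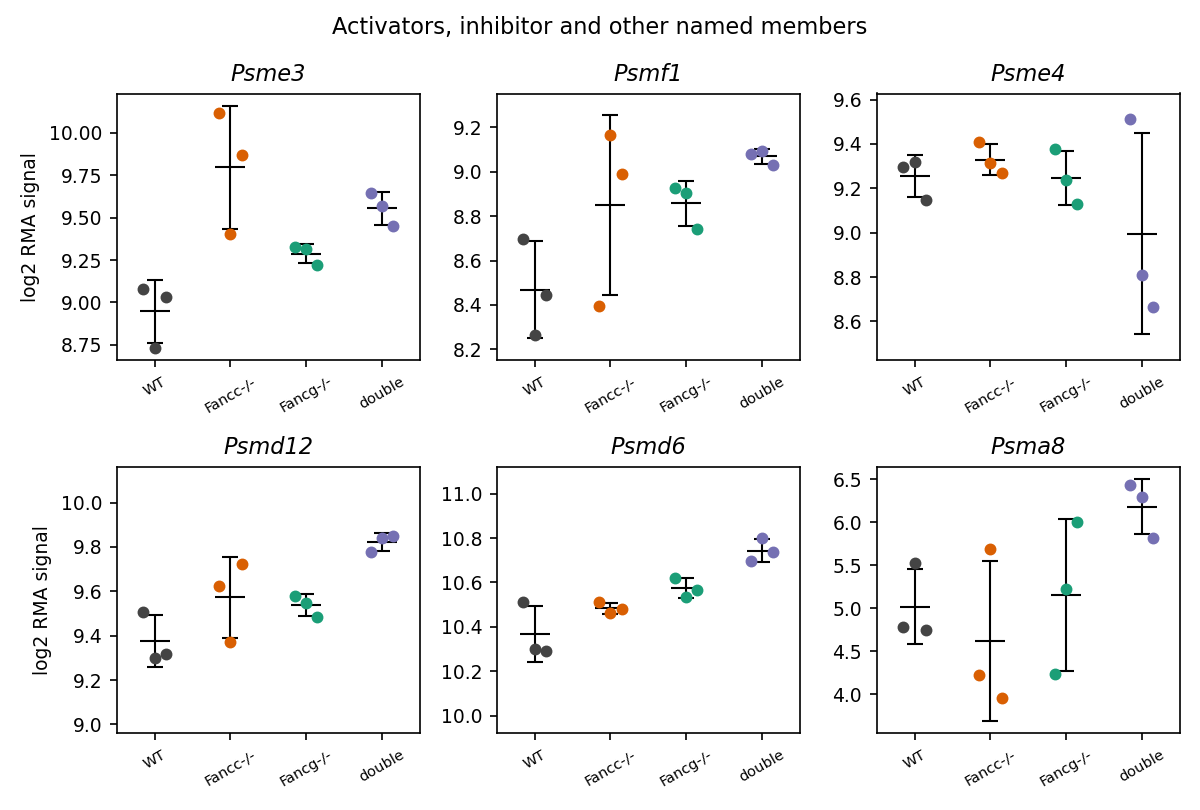
Log2 signal of Psme3, Psmf1, Psme4, Psmd12, Psmd6 and Psma8 by group; points are mice, lines the mean and bars the SD of 3 mice, and each panel has its own axis. Every array labelled as a knockout is above every wild-type array for Psme3, and double-knockout replicate 1 stands apart for Psme4.

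Among the 7 assembly chaperones, which build the core and the cap, none was called by limma in a comparison with wild type, and 1, 0 and 1 had an unadjusted p below 0.05 in Fancc-/-, Fancg-/- and double-knockout marrow, against 19.8%, 7% and 24.2% of all genes. Their median differences were 0.19, 0.15 and 0.16. Psmd9, a chaperone of the 19S base, had the largest. It was at 8.25, 7.80 and 7.79 in wild type, 8.30, 8.14 and 8.70 in Fancc-/-, 8.24, 8.09 and 8.32 in Fancg-/- marrow, and 8.45, 8.56 and 8.52 in the double knockout. The double-knockout mice lay above wild type by 0.57 (SE 0.17, limma adjusted p = 0.0672). Dim further Psmd9 probe sets differed by -0.05 and 0.33 there. Psmg4, a chaperone of the 20S core, was at 8.06, 7.87 and 7.81 in wild type, 7.77, 7.69 and 7.86 in Fancc-/-, 7.83, 7.89 and 7.98 in Fancg-/- marrow, and 7.86, 8.14 and 7.93 in the double knockout, with every group overlapping wild type. Psmc3ip, a meiotic recombination cofactor, differed by -0.14, 0.10 and 0.33, and Psme3ip1, which binds Psme3, by -0.17, -0.07 and -0.25, none of them called.

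Among the proteasome partners outside the symbol rule were the 19S subunit Sem1, the deubiquitinases Uchl5 and Usp14, the maturation factor Pomp and shuttle factors. The list also held the Vcp unfoldase and its cofactors, and the regulators of the transcription factor Nfe2l1. It gave 16 tested genes. None was called by limma, with 2, 0 and 2 at an unadjusted p below 0.05, against 19.8%, 7% and 24.2% of all genes, and the medians were -0.03, -0.01 and 0.09. The smallest p values in Fancc-/- marrow were those of Nploc4, a Vcp cofactor (0.34, limma adjusted p = 0.215), Pomp (-0.26, limma adjusted p = 0.223) and Ecpas (-0.31, limma adjusted p = 0.259). In the double knockout they were those of Ngly1, which processes Nfe2l1 (-0.42, limma adjusted p = 0.185), Nploc4 (0.31, limma adjusted p = 0.205) and Ufd1 (0.36, limma adjusted p = 0.219). In Fancg-/- marrow they were those of Nploc4 (0.24), Vcp (-0.13) and Ubqln4 (-0.26), with limma adjusted p values from 0.844 to 0.874. Beside the 19S median of 0.33 in the double knockout, the partners thus had a median closer to that of all genes. Sem1, Uchl5 and Usp14 differed there by 0.04, 0.19 and 0.21, and the 19S counts cover only genes that match the symbol rule.

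The knockouts were also compared with each other. None of the 48 proteasome genes was called by limma between the double knockout and Fancc-/- marrow (background 0.0084%), the double knockout and Fancg-/- marrow (background 0%), or Fancg-/- and Fancc-/- marrow (background 0.109%). Unadjusted p values below 0.05 were found for 15, 1 and 4 of the 48, against 19.7%, 14.4% and 9.04% of all genes. All 17 genes of the 19S cap had a positive difference between the double knockout and Fancc-/- marrow, with a median of 0.23, against 46.8% of all genes. All 17 were also positive against Fancg-/- marrow, with a median of 0.17, against 43.6%; both comparisons use the same double-knockout arrays. With single arrays left out, 15 to 17 stayed positive against Fancc-/- marrow and 16 or 17 against Fancg-/- marrow, and without replicates 1 and 3 labelled Fancg-/- 16 were, with a median of 0.21. Genotype and sex cannot be told apart in either comparison, since Eif2s3y was at 9.00 in the double knockout and 3.14 in Fancc-/- marrow and both transcripts varied among the libraries labelled Fancg-/-. The 20S core had medians of 0.17 and 0.04 in these comparisons. The 4 immunoproteasome and PA28 genes were above Fancc-/- marrow in the double knockout (median 0.32) and in Fancg-/- marrow (median 0.49), and these 2 values share the Fancc-/- arrays and with them replicate 3. Without that replicate the medians were 0.11, with 2 of the 4 below 0, and 0.21. The interaction, which takes both single-knockout changes off the change of the double knockout, was called for none of the 48 by limma (background 0.0084%), and 3 had an unadjusted p below 0.05, against 14.9% of all genes. Those 3 were Psmb8 (0.65, SE 0.26, limma adjusted p = 0.283), Psmb10 (0.67, SE 0.30, limma adjusted p = 0.335) and Psme3 (-0.58, SE 0.24, limma adjusted p = 0.289), so a difference between the effect of both deletions and the sum of the single effects was not shown for any proteasome gene.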

How the data were processed

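By the labels, RNA of unfractionated bone marrow from 12 mice in 4 groups was hybridized to 1 Affymetrix array each, after amplification from an oligo-dT primer. Values are on a log2 scale, 1 per probe set, as deposited; the authors used RMA and Partek, per the submitters' processing notes; versions and a genome build are not given in the sources used here. The table held 45101 probe sets, of which 34945 carried exactly 1 gene symbol; 932 with several symbols and 9160 with none were not used here, nor were 64 array controls. For each of the 18193 genes the brightest probe set by its mean was used. Testing required it to be above the median of its array on at least 3 arrays, which left 11906 genes. Signals of different probe sets were not compared as levels. Precision is limited by the 3 mice per group.

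The 4 groups of arrays, 12 in all, were fitted together in limma 3.58.1 (R 4.3.3) with a variance trend and 8 residual degrees of freedom, in 7 comparisons, with 2-sided tests. The procedure was tested on simulated data. All 49 members matched the RefSeq gene table (GRCm38.p6) by Entrez ID under the same symbol. The members and gene lists were chosen with earlier results of these data known. Genes were named by rule: the immunoproteasome genes and their constitutive counterparts, every member past the test, the members of each class with the largest and smallest mean of the 3 differences from wild type, members not tested, and up to 3 genes of each further list with the smallest p values. Alternatives were other filters, probe set rules, scalings, variance models, sample sets and a replicate block, and leaving out each array in turn. Replicate numbers are in the sample titles, with no statement that they pair mice. Deviations of same-numbered wild-type and Fancc-/- arrays correlated at 0.16, 0.15 and 0.16, each best with its own number, which met the criterion for pairing (every pair above 0.1); no other pair of groups met it. A fit of these 2 groups with the block was added after the data were seen. Replicates are separate mice per the labels, and no 2 arrays held identical values.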

Additional observations from a re-analysis of the deposited data

How the results depend on the processing

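Among alternatives for the genes named above, 996 values kept their direction and side of the threshold, 24 lost and 10 gained a call, and 45 changed sign, none of those 45 called in either fit. All 24 losses were of the calls of Psme3 in Fancc-/- marrow and of Psmd12 and Psmd6 in the double knockout, which had 17, 16 and 16 alternatives. Values that kept their side for every other gene or comparison were uncalled in both fits. The cause of the changes below was not tested. For the double knockout against wild type, the count of 2 called members became 0 with no filter, 5 with a filter at percentile 75, 1 with the mean of all probe sets, 0 after median centring, 1 after a further quantile normalization and 0 without Fancg-/- replicates 1 and 3 together. It ranged from 0 to 8 when single arrays were left out. The 8 came without double-knockout replicate 1 (Psmb4, Psmc1, Psmd3, Psmd6, Psmd8, Psmd11 and Psmd12 higher, Psme4 lower); it was 0 without wild-type replicate 2 or 3 or double-knockout replicate 2 or 3, and 1 without wild-type replicate 1. In a fit of the groups compared alone, other members passed (Psma8, Psme3 and Psmf1). For Fancc-/- against wild type the count of 1 became 2 at percentile 75 and after median centring, in both with Psmb8, and 0 in a fit of the groups compared alone, with or without a replicate block. It ranged from 0 (without wild-type replicate 2) to 3 (without Fancc-/- replicate 1 or 2) with single arrays left out. Without double-knockout replicate 1, counts of 0 became 4 against Fancc-/- and 1 against Fancg-/- marrow. The counts of 0 for Fancg-/- against wild type or Fancc-/- marrow and for the interaction stayed at 0 under every alternative run.

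The 20S alpha median (without Psma8) in Fancg-/- marrow was 0.14, and 0.033 with the mean of all probe sets; with single arrays left out it ran from 0.049 (without wild-type replicate 3) to 0.21. That of the double knockout was 0.13, and ran from 0.079 to 0.23 (without wild-type replicate 1). The immunoproteasome median in Fancc-/- marrow, -0.65, ran from -0.84 to -0.34 (without Fancc-/- replicate 3). The other 241 class medians moved by less than the spread between mice. Over all genes, the count called ranged from 160 to 645 for Fancc-/- (540 as reported), 16 to 1853 for the double knockout (629), 0 to 72 for Fancg-/- (6), 1 to 1285 for the double knockout against Fancc-/- (1), 0 to 993 against Fancg-/- (0), 0 to 51 between single knockouts (13) and 0 to 594 for the interaction (1).

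Signs of small differences changed as follows. In Fancc-/- marrow Psmd13, Psmb1 and Psmg4 became 0.11, 0.0059 and 0.0066 with the mean of all probe sets, Psmb5 became -0.037 after median centring, and Psmc3 and Psmd13 became 0.042 and 0.016 after a further quantile normalization. In Fancg-/- marrow Psmg4 became 0.10 with the mean of all probe sets and 0.028 after quantile normalization, and Psmb6 became -0.0017 after median centring. Without Fancg-/- replicates 1 and 3 together, Psmb5, Psmb6, Psmb7, Psmb1 and Psmc3ip became -0.042, -0.017, -0.063, -0.081 and -0.044. With single arrays left out, Fancc-/- differences ran from -0.053 to 0.066 (Psmb5), -0.13 to 0.027 (Psmb7), -0.075 to 0.11 (Psmc3), -0.12 to 0.057 (Psmd13), -0.14 to 0.0066 (Psmb1) and -0.23 to 0.010 (Psmc3ip). Those of Fancg-/- ran from -0.021 to 0.070 (Psmb6), -0.00807 to 0.13 (Psmb7), -0.29 to 0.59 (Psma8), -0.067 to 0.16 (Psma7), -0.013 to 0.13 (Psmb1), -0.063 to 0.063 (Psmg4), -0.070 to 0.052 (Psme4) and -0.00881 to 0.21 (Psmc3ip), and those of the double knockout from -0.033 to 0.19 (Psma7) and -0.020 to 0.13 (Psmg4).

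With a replicate block in the fit of all arrays, 0 members were called in the double knockout (limma adjusted p = 0.0606 for Psmd12 and 0.0554 for Psmd6), whose arrays share only a number with wild type, and 1 was called in Fancc-/- marrow. For Fancc-/- and wild type fitted alone, the block gave 160 called genes and no called member, with limma adjusted p = 0.179 for Psmb8 and 0.193 for Psmb10. Same-numbered arrays of these groups met the correlation criterion for pairing, but no label states that they pair mice. The block changed no other call among the members.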
